A study of Sorghum bicolor with 12 samples.

Results

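Chromosome 5 of sorghum (Sorghum bicolor) stood out in seedling roots as the chromosome with the most silent genes. Its genes were taken by their IDs, which start with Sobic.005G, and there were 2436 of them among the 34129 genes of the count table. The comparison set was the 31591 genes whose IDs carry the number of one of the other 9 chromosomes. A further 102 genes have a K in place of a chromosome number and belong to neither set. In roots, 687 chromosome 5 genes (28.2%) had 0 counts in all 6 samples, against 11.6% to 18.3% on the other chromosomes.

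The samples were 6 pools of root RNA, each of at least 6 roots and each sequenced in 2 technical runs that were summed here. The brassinosteroid receptor mutant bri1-ems72 and the sibling WT-ems72, which carries the wild-type receptor, gave 3 pools each. Both genotypes were BC2F2 plants, and roots were pooled in order to even out differences in their genetic background. All roots were 8 days old, untreated, and grown in vitro at 28 °C from embryos taken 13 to 17 days after anthesis. The study asked which root transcripts depend on the receptor kinase BRI1, which binds brassinosteroids at the cell surface. No ID was paired with a gene name or product in the sources used here, so neither the BRI1 transcript nor root marker genes could be used to check the labels.

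As background, sorghum chromosome 5 corresponds to rice chromosome 11 and sorghum chromosome 8 to rice chromosome 12, and the chromosomes of each species named here are known as relics of 1 ancient duplication in the grasses. In both species these chromosomes are known for arrays of disease resistance genes that encode nucleotide-binding leucine-rich repeat receptors. Sorghum chromosome 5 is also known for arrays of kafirin genes, which encode the storage proteins of the grain. None of the IDs described here was assigned to these families.

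Depth was similar in all pools. Total counts ran from 44357644 to 54629427 per pool and came to 290850521 over the 6 pools. A count of 0 in all pools allows a level of up to 0.0103 CPM (counts per 1000000 reads counted, TMM-scaled), taking 3 counts as the limit. A count of 0 in a single pool allows 0.0546 to 0.0702 CPM, depending on the pool. These limits cover counting error only, and a silent gene here is one not read at this depth in these roots.

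Chromosome 5 had the largest share of unread genes in each pool taken singly. In the WT-ems72 pools 36.2%, 38.6% and 37.3% of its genes had 0 counts, and in the bri1-ems72 pools 38.0%, 37.2% and 38.8%. The next chromosome was 8, with 25.9%, 27.6% and 26.8% in WT-ems72 and 27.4%, 25.9% and 28.1% in bri1-ems72. The lowest chromosome 5 pool was thus above the highest chromosome 8 pool. Over the 6 pools the means were 37.7% ± 0.976 for chromosome 5 and 27.0% ± 0.940 for chromosome 8 (SD, n = 6), a difference of 10.7 percentage points ± 0.329 (SD). Against the mean of the other 9 chromosomes the difference was 16.3 percentage points ± 0.490 (SD, n = 6). Each of the 9 differences had the same direction in 6 of 6 pools, with p = 0.0313 by an exact two-sided sign-flip permutation test, the smallest value that 6 pools can give (0.0313 after adjustment over the 9). All pools were counted over the same gene models, so the test speaks to the spread between pools and not to how the models were drawn.

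Fewer of its genes were expressed than on any other chromosome, taking 1 CPM as the limit. On chromosome 5, 1104 genes (45.3%) reached 1 CPM in at least 3 pools, compared with 55.5% on chromosome 8 and 66.9% on chromosome 1, the lowest and the highest of the other 9. The WT-ems72 pools had 45.1%, 43.8% and 44.7% of chromosome 5 genes at 1 CPM or more, and the bri1-ems72 pools 44.3%, 45.7% and 44.6%. The pools differed by under 2 percentage points. Chromosome 5 minus the mean of the other 9 was -17.4 percentage points ± 0.211 (SD, n = 6), and minus chromosome 8 it was -10.3 ± 0.477. It was lower than each of the 9 in 6 of 6 pools (exact two-sided sign-flip permutation test, p = 0.0313, adjusted p = 0.0313 over the 9). Any pair of chromosomes that differs in the same direction in every pool reaches this p. The highest chromosome 8 pool (55.8%), for example, was under the lowest chromosome 7 pool (56.7%). So in this and the other comparisons between chromosomes the p does not by itself set chromosome 5 apart.

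**Figure D1:**
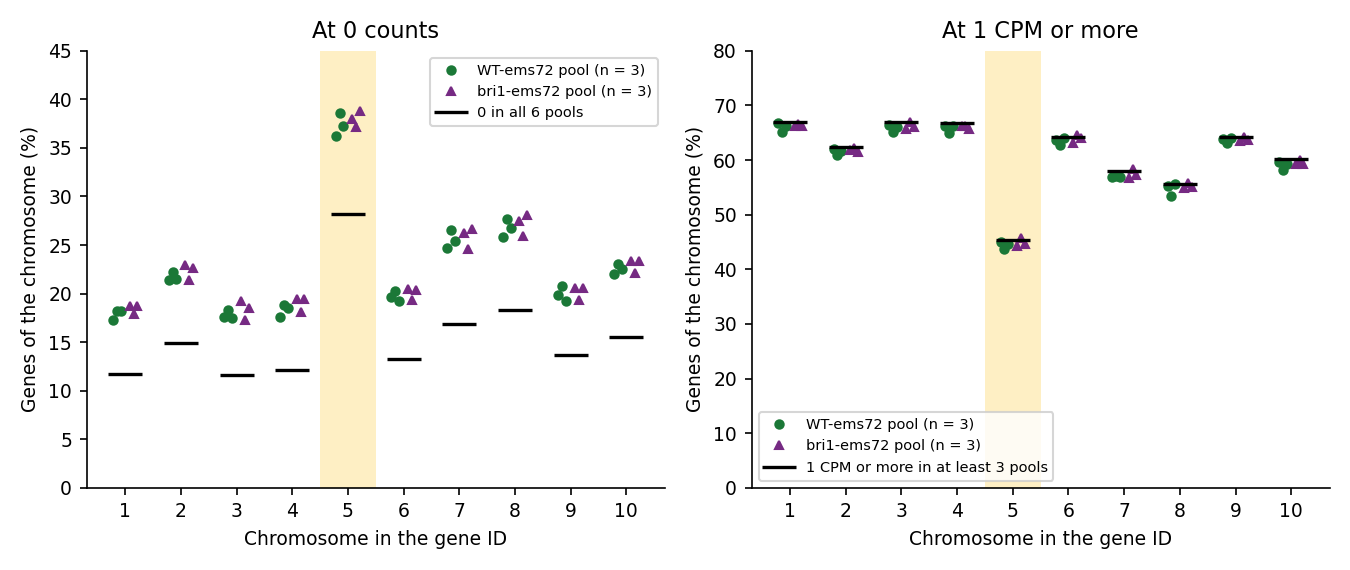
Share of each chromosome's genes at 0 counts (left) and at 1 CPM or more (right), in percent, for each of 3 WT-ems72 and 3 bri1-ems72 pools, with a bar for genes at 0 in all 6 pools or at 1 CPM or more in at least 3. On chromosome 5, shaded, the pools sit at 36.2% to 38.8% on the left and 43.8% to 45.7% on the right, apart from every other chromosome.

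Between the silent and the expressed genes were 645 chromosome 5 genes (26.5%) that were read but did not reach 1 CPM in 3 pools. That share was also above those of the other chromosomes, which ran from 21% to 26.2% (chromosome 8) with a mean of 23.0%, a difference of 3.51 percentage points from that mean. By mean level over the 6 pools, 18.2% of chromosome 5 genes stood at 1 to 10 CPM, against 20.8% of the genes of the other 9 chromosomes together. The gap was wider at higher levels: at 10 to 100 CPM stood 23.8% of chromosome 5 genes and 36.5% of the others, and at 100 CPM or more 84 genes (3.45%) and 6.54% of the others. Of these classes, the excess at 0 counts and the deficit at 10 to 100 CPM were the largest differences.

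Silence was mostly shared by the pools. Reads came from all 6 pools for 1331 chromosome 5 genes (54.6%), compared with 73.3% of the genes of the other 9. Of the chromosome 5 genes read in some pools only, 132 were read in 1 pool, 78 in 2, 71 in 3, 61 in 4 and 76 in 5. Genes read in 1 pool only were 5.42% of chromosome 5 genes, against 3.72% of the genes of the other 9. Of the chromosome 5 genes with any read, 79 had none in the 3 WT-ems72 pools and 82 had none in the 3 bri1-ems72 pools. No share over all genes is given beside these last 2 counts, so they are not read as a trait of chromosome 5. A single chromosome 5 gene was read in each bri1-ems72 pool and in no WT-ems72 pool, and 2 were read in each WT-ems72 pool and in no bri1-ems72 pool. These are 0.0411% and 0.0821% of its genes, against 0.0557% and 0.117% of all genes in the table, so neither count stood out.

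**Figure D2:**
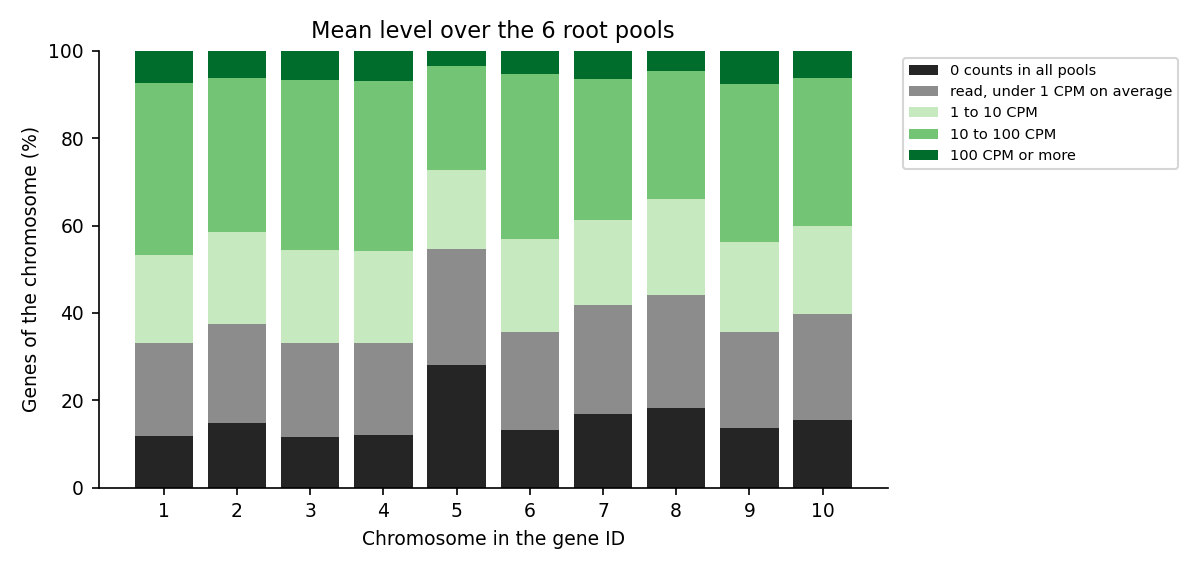
Genes of each chromosome, in percent, by their mean level over the 6 pools, from 0 counts in all pools to 100 CPM or more. On chromosome 5 the share at 0 is 28.2% and the share at 10 to 100 CPM is 23.8%, against 13.7% and 36.5% for the other 9 chromosomes together.

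The expressed genes of chromosome 5 also stood at lower typical levels. CPM is not scaled to gene length, so levels are compared here as distributions and not gene by gene. Among genes at 1 CPM or more in 3 pools, the median level on chromosome 5 was 13.95, 14.15 and 14.39 CPM in WT-ems72 and 14.04, 14.44 and 14.27 CPM in bri1-ems72. The mean of the 6 medians was 14.2 CPM ± 0.192 (SD, n = 6), compared with 15.2 CPM for chromosome 8 and 21.2 CPM for chromosome 1. Chromosome 5 was lower than each of the 9 in 6 of 6 pools (exact two-sided sign-flip permutation test, p = 0.0313, adjusted p = 0.0313). The difference from chromosome 8 was small, at -0.958 CPM ± 0.596 (SD, n = 6).

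In total output chromosome 5 held less than its share of genes. It has 7.14% of the genes in the table and took 5.002%, 5.60% and 5.05% of all counts in the WT-ems72 pools and 5.22%, 5.24% and 4.86% in the bri1-ems72 pools. Counting error is small beside these differences: the 95% Wilson interval ran from 5.59% to 5.61% in the highest pool and from 4.85% to 4.87% in the lowest. Chromosomes 2, 6, 7, 8 and 10 also took less than their share, chromosome 8 with 5.94% of genes and 5.10% of counts. In share of counts chromosome 5 was above chromosome 8 in 3 of 6 pools (exact two-sided sign-flip permutation test, p = 0.719). Per gene, silent ones included, the level on chromosome 5 was 21.2 CPM ± 1.41 (SD, n = 6). The difference from the mean of the other 9 was -8.26 CPM ± 1.07, and the level was lower than on each of them in 6 of 6 pools (exact two-sided sign-flip permutation test, p = 0.0313, adjusted p = 0.0313). Per expressed gene the mean was 46.7 CPM, inside the range of 42.2 to 52.8 CPM on the other chromosomes.

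A few highly expressed genes carried much of that output. Of the summed CPM of chromosome 5, 30.2% came from its 10 highest genes and 50% from 52 genes, or 2.13% of its genes. On the other chromosomes the 10 highest genes gave 8.43% to 27.0%, the most on chromosome 8, where 50% came from 3.46% of the genes. The 2 highest genes gave more on chromosome 8 (17.7%) than on chromosome 5 (14.5%). Without the 10 highest genes of each chromosome, the mean fell to 14.9 CPM per gene on chromosome 5, against 18.5 CPM on chromosome 8 and 30.8 CPM on chromosome 1.

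The highest gene was Sobic.005G224500, with 3890, 6764 and 2546 CPM in the WT-ems72 pools and 4523, 5854 and 2811 CPM in the bri1-ems72 pools. It alone made 8.51% of the chromosome's summed CPM. Sobic.005G228700 followed, with 2540, 3968 and 2876 CPM in WT-ems72 and 4220, 3256 and 1653 CPM in bri1-ems72. In both genes the genotypes overlapped, and the spread within a genotype was larger than the difference between the genotype means. Both lie near the end of the chromosome by ID number, in the bin with the largest summed level (9052 CPM, the last of 20 bins).

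The other 8 of the 10 highest genes had means from 482 CPM for Sobic.005G074400 to 1862 CPM for Sobic.005G050200. The steadiest was Sobic.005G096101, with 1003, 1469 and 1316 CPM in WT-ems72 and 1259, 1239 and 1336 CPM in bri1-ems72. The least steady was Sobic.005G087000, with 318, 2460 and 318 CPM in WT-ems72 and 1700, 108 and 696 CPM in bri1-ems72. The highest pool of Sobic.005G087000, WT-ems72 replicate 2, was 22.8 times the lowest, bri1-ems72 replicate 2, and in none of the 10 genes did the pools separate by genotype.

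Along the chromosome, silent genes were found throughout but were most frequent at higher ID numbers. ID numbers of this table increase along each chromosome, and chromosome 5 was divided into 20 bins of equal ID-number width that held 108 to 171 genes. The share of genes at 0 in all pools was lowest in bin 2 (9.48% of 116 genes), which also had the largest expressed share (64.7%). It was 36.4%, 46.2% and 35.9% in bins 12, 13 and 14. Bin 13 runs from ID number 139400 to 150900, and of its 117 genes 54 were silent and 41 were expressed. The same bin also holds Sobic.005G139900, its highest gene, at 410 CPM on average.

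The silent share reached 20% in 17 of the 20 chromosome 5 bins and in 35 of the 180 bins of the other 9 chromosomes. In 13 of 20 bins chromosome 5 had the largest silent share of the 10 chromosomes at the same relative position, and in 13 of 20 it had the smallest expressed share. In bins 12 to 20 both held for every bin. In bins 2 to 6 neither its silent share nor, except in bin 4, its expressed share was outside the range of the other 9.

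**Figure D3:**
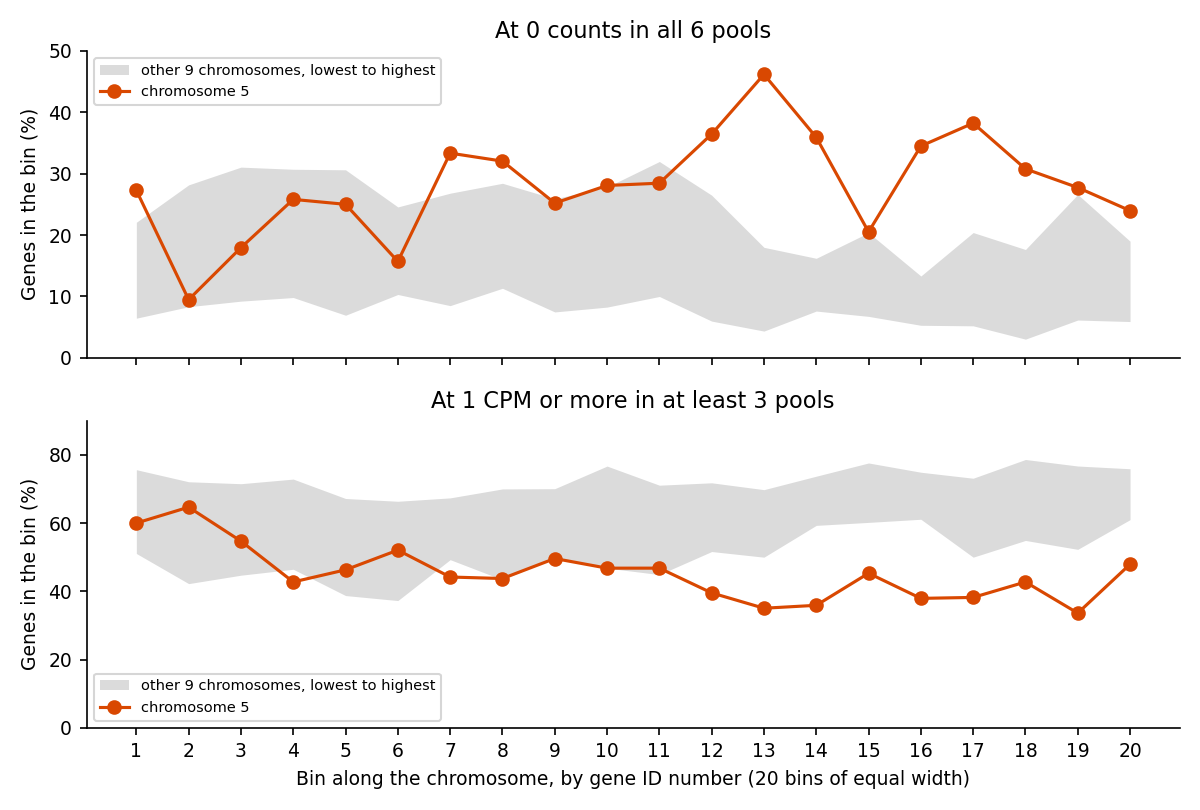
Share of genes at 0 counts in all 6 pools (top) and at 1 CPM or more in at least 3 pools (bottom), in percent, in 20 bins by gene ID number. The line is chromosome 5 and the grey band runs from the lowest to the highest of the other 9 chromosomes; from bin 12 on the line lies above the band in the top panel and under it in the bottom panel.

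Set against each other, the later bins of chromosome 5 were the more silent ones, the opposite of most chromosomes. In bins 11 to 20, 42.2% of its genes had 0 counts in an average pool, and in bins 1 to 10 33.3%. The difference was 8.88 percentage points ± 1.03 (SD, n = 6) and had the same direction in 6 of 6 pools (exact two-sided sign-flip permutation test, p = 0.0313). On 7 of the other 9 chromosomes the later bins were less silent in every pool, with mean differences from -3.72 percentage points on chromosome 1 to -13.3 on chromosome 2. On chromosomes 8 and 10 the difference was -0.289 (p = 0.25) and -0.434 (p = 0.188) by the same exact test. Chromosome 5 differed from the mean of the other 9 in this respect by 15.2 percentage points ± 1.16 (SD, n = 6; exact two-sided sign-flip permutation test, p = 0.0313). Counted as genes at 0 in all 6 pools, chromosome 8 had 18.7% in the later bins and 18.0% in the earlier ones. That is the same direction as on chromosome 5, with 32.3% and 24.3%. The split into earlier and later bins was chosen after the bins were seen.

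The middle of the chromosome was slightly more silent than its ends. In bins 6 to 15, 39.3% of genes had 0 counts in an average pool, and in the outer bins 35.9%, a difference of 3.46 percentage points ± 1.24 (SD, n = 6; exact two-sided sign-flip permutation test, p = 0.0313). On the other chromosomes the same difference ran from -5.82 on chromosome 6 to 6.68 on chromosome 7. Each of them gave p = 0.0313 by the same exact test, whichever the direction, so this p does not set chromosome 5 apart. Over genes whose ID number ends in 00 it was 1.83 on chromosome 5, with an exact p of 0.0625, so the call was lost.

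Silent genes on chromosome 5 also lay next to each other in long runs. There were 26 runs of at least 5 consecutive genes at 0 in all pools, which held 188 genes or 27.4% of its silent genes. The other chromosomes had 2 to 10 such runs each, with 2.03% to 10.3% of their silent genes. A gene that followed a silent gene was itself silent in 46.6% of cases on chromosome 5, and one that followed a read gene in 21%. On the other chromosomes these shares ran from 18.7% to 31.5% and from 10.3% to 15.4%. Counted in single pools, the share of genes at 0 after a gene at 0 was 52.7% on chromosome 5 and 33.0% on the other 9, a difference of 19.7 percentage points ± 0.721 (SD, n = 6) in the same direction in 6 of 6 pools (exact two-sided sign-flip permutation test, p = 0.0313). This comparison was chosen after the runs were seen, and a larger share of silent genes by itself lengthens runs and raises this share. The shares at 0 were 37.7% on chromosome 5 and 21.4% on the other 9, already a difference of 16.3 percentage points. The 19.7 points and their p therefore do not show clustering beyond that excess, which was not tested.

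The longest run was 19 genes, from Sobic.005G145900 to Sobic.005G147700 in bin 13, and the longest on another chromosome was 11 genes. All 19 genes had 0 counts in each of the 6 pools. The gene before it, Sobic.005G145800, stood at 7.46 CPM and the gene after it, Sobic.005G147800, at 0.0312 CPM on average. The run opened a stretch of 33 genes up to Sobic.005G149100 in which 28 were silent and no gene reached 1 CPM in 3 pools, with a highest mean of 0.926 CPM. The longest stretch without an expressed gene on another chromosome was 27 genes, on chromosome 7.

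Further long runs were picked out after their values were seen. One of 11 genes went from Sobic.005G057750 to Sobic.005G058600, and one of 10 genes from Sobic.005G081100 to Sobic.005G082000. Close to the latter, 25 genes from Sobic.005G082300 to Sobic.005G083766 included no expressed gene and 15 silent ones. In bin 17, 3 runs of 7, 5 and 7 silent genes followed each other inside a stretch of 23 genes, from Sobic.005G189400 to Sobic.005G191500, of which 19 were silent and none was above 0.404 CPM on average. Runs also lay near both ends of the chromosome, with 7 genes from Sobic.005G006000 to Sobic.005G006900 and 9 from Sobic.005G227101 to Sobic.005G227800.

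**Figure D4:**
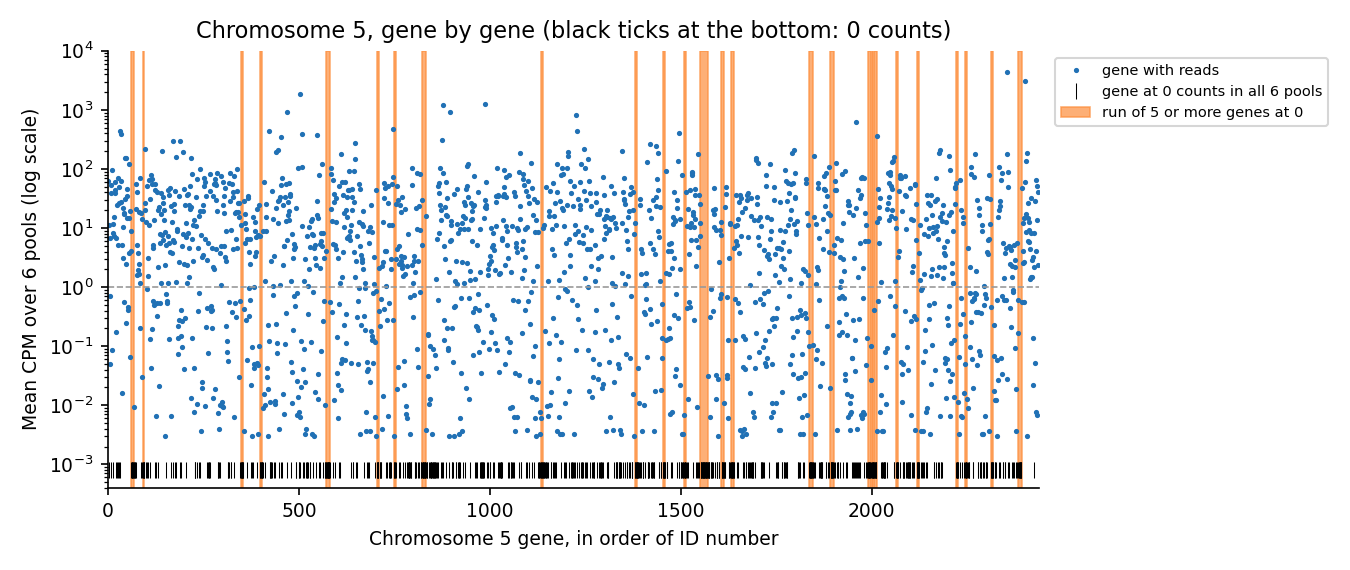
Mean level of each chromosome 5 gene over the 6 pools in CPM (log scale), in order of ID number, with a dashed line at 1 CPM. Black ticks at the bottom mark the 687 genes at 0 counts in all pools, and shaded bands mark the 26 runs of at least 5 of them, the widest of 19 genes.

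The kind of ID moved with silence. Most ID numbers end in 00, and others lie between those numbers. On chromosome 5, 79.2% of IDs ended in 00, against 81.1% to 86.3% on the other chromosomes. Genes with the other IDs were more often silent everywhere, in 42.0% of cases on chromosome 5 and 30.9% to 35.6% elsewhere. Among IDs that end in 00 the contrast between chromosomes was as large as before, with 24.6% silent on chromosome 5 and 8.12% to 14.6% on the others. In bin 10, which held the most genes, 50.9% of IDs did not end in 00 and 28.1% of genes were silent.

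Chromosome 5 genes kept by the low-count filter had a larger median spread between pools of the same genotype than those kept on the other chromosomes. The SD of log2 CPM within genotype was computed for each of the 1277 chromosome 5 genes that passed the low-count filter, and its median was 0.463, against 0.394 for the 22401 filtered genes of the other 9. The highest median on another chromosome was 0.430, on chromosome 8. An SD above 1, a spread of about 2-fold or more, was found for 14.5% of the filtered chromosome 5 genes and 10.3% of the others. On chromosome 8 it was found for 13.0%. Among genes with a mean of at least 5 CPM the share was 7.13% on chromosome 5, 7.76% on chromosome 8 and 6.08% on the other 9 together. Under 100 CPM, lower levels came with larger spread in both sets. At 100 CPM or more the median SD was 0.355 on chromosome 5 and 0.334 on the others, above those at 20 to 100 CPM. The filtered chromosome 5 genes had a median level of 11 CPM against 16.3 CPM. Within level classes the chromosome 5 median remained higher in 5 of 5, at 0.627 against 0.559 for 1 to 5 CPM, 0.393 against 0.378 for 5 to 20 CPM and 0.321 against 0.283 for 20 to 100 CPM. The difference of the medians was 0.069 in all pools and 0.030 without bri1-ems72 replicate 1. No test across genes was made.

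The 5 genes with the widest range among pools were taken among those with a mean of at least 1 CPM, and for most of them that mean rested on 1 pool. Sobic.005G043400 had 1.90, 0.229 and 0 CPM in the WT-ems72 pools and 18.3, 0 and 0 CPM in the bri1-ems72 pools. Sobic.005G061601 had 1.014, 0.298 and 0 CPM in WT-ems72 and 7.49, 0 and 0 CPM in bri1-ems72. Sobic.005G223925 had 3.15, 0.550 and 0.364 CPM in WT-ems72 and 17.3, 0.902 and 0.0389 CPM in bri1-ems72. Without bri1-ems72 replicate 1, the highest pool of these 3 genes, their means went from 3.40 to 0.426, from 1.47 to 0.262 and from 3.72 to 1.00 CPM.

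The other genes of this group followed other pools. Sobic.005G065000 had 7.77 CPM in bri1-ems72 replicate 2 and at most 0.432 CPM elsewhere, and its mean went from 1.46 to 0.193 CPM without that pool. Sobic.005G137300 had 16.4 CPM in WT-ems72 replicate 1, 9.18 CPM in bri1-ems72 replicate 2 and 0 in bri1-ems72 replicate 3, and without WT-ems72 replicate 1 its mean went from 5.45 to 3.26 CPM. In none of the 5 did the genotypes separate.

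Clean on-off patterns were rare. With a highest pool of at least 1 CPM and each pool either above 20% or below 2% of it, 2 of 1210 chromosome 5 genes (0.165%) qualified, against 0% to 0.373% on the other chromosomes. They were named after their values were seen. Sobic.005G079100 had 1.96, 0.458 and 0.0182 CPM in WT-ems72 and 1.99, 0 and 0 CPM in bri1-ems72. Sobic.005G092200 had 0.885, 0.0458 and 0.0182 CPM in WT-ems72 and 2.97, 0 and 0 CPM in bri1-ems72. In neither gene did the genotypes separate.

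**Figure D5:**
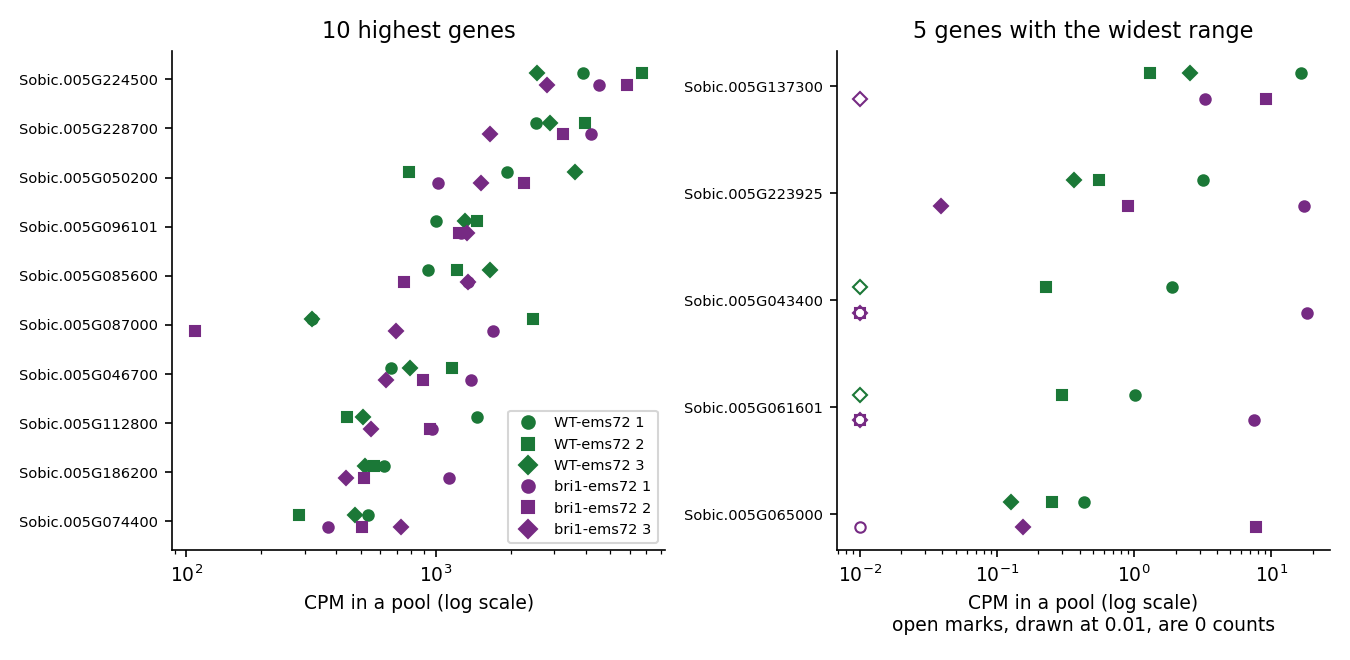
CPM (log scale) in each of the 3 WT-ems72 and 3 bri1-ems72 pools for the 10 highest genes of chromosome 5 (left) and the 5 with the widest range among pools (right), where open marks drawn at 0.01 stand for 0 counts. In the left panel the genotypes overlap for each gene, and in the right panel single pools such as bri1-ems72 replicate 1 (18.3 CPM for Sobic.005G043400) stand far above the rest.

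The mutant and its wild-type sibling did not differ detectably in how much of chromosome 5 was silent or expressed. The share at 0 counts was 37.4% ± 1.19 in WT-ems72 and 38.0% ± 0.821 in bri1-ems72 (SD, n = 3 each; exact two-sided permutation test, p = 0.5). The share at 1 CPM or more was 44.5% ± 0.650 and 44.9% ± 0.737 (SD, n = 3 each; exact permutation test, p = 0.6). The mean level per gene was 21.4 CPM ± 1.75 and 21.1 CPM ± 1.35 (SD, n = 3 each; exact permutation test, p = 0.7). With 3 pools against 3 the smallest possible p is 0.1. The gap to the other 9 chromosomes in the share at 0 was likewise close in the genotypes, at 16.2 and 16.4 percentage points.

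Gene by gene, no chromosome 5 gene passed the threshold between genotypes. Of the 1277 tested, 0 rose and 0 fell in the mutant at the adjusted threshold of 0.05 (edgeR quasi-likelihood test, Benjamini-Hochberg over all 23707 tested genes), where 0% of all tested genes was called in either direction. DESeq2 called 0 chromosome 5 genes, and 0.0127% of all genes higher and 0.00423% lower. At an unadjusted edgeR p below 0.05 there were 24 chromosome 5 genes (1.88%), against 1.42% of all tested genes. Of these, 18 were higher in bri1-ems72 (1.41%, against 1.16% of all) and 6 lower (0.470%, against 0.262% of all). Without WT-ems72 replicate 3 there were 16 (1.22%, against 1.84% of all), of which 8 were higher and 8 lower. Without that pool neither the excess over all genes nor the direction of the split was seen. The excess was also absent with only the second-listed of the 2 count columns of each pool (1.24%, against 1.42% of all). The pools of the genotypes did not overlap for 39 genes that were higher in the mutant (3.05%, against 2.88% of all) and 19 that were lower (1.49%, against 1.7% of all). These shares are near those of all genes tested.

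The median log2 fold change of bri1-ems72 over WT-ems72 was -0.011 for chromosome 5 and -0.012 for all tested genes. The central 90% of chromosome 5 genes lay between -0.67 and 0.87, compared with -0.52 and 0.71 for all. The 95% interval lay within a 2-fold change for 541 chromosome 5 genes (42.4%) and for 51.1% of all tested genes, and for the others it reached past a 2-fold change.

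The genes with the lowest unadjusted p in each direction were picked by that difference, and their values are a description. Sobic.005G065700 had 30.4, 44.0 and 47.3 CPM in WT-ems72 and 75.4, 86.5 and 55.2 CPM in bri1-ems72, which is a log2 fold change of 0.84 (SE 0.25; edgeR adjusted p = 1.00). Sobic.005G203200 had 6.15, 5.32 and 3.42 CPM in WT-ems72 and 7.77, 15.3 and 9.87 CPM in bri1-ems72, which is a log2 fold change of 1.15 (SE 0.36; edgeR adjusted p = 1.00). In both each mutant pool was above each wild-type pool.

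On the lower side, Sobic.005G123500 had 53.7, 84.3 and 29.5 CPM in WT-ems72 and 16.5, 20.9 and 28.2 CPM in bri1-ems72, which is a log2 fold change of -1.35 (SE 0.40; edgeR adjusted p = 1.00). The lowest wild-type pool and the highest mutant pool of this gene were 29.5 and 28.2 CPM. Sobic.005G163500, a gene near the detection limit, had 17, 11 and 12 counts in WT-ems72 and 4, 4 and 3 counts in bri1-ems72, which is a log2 fold change of -1.84 (SE 0.59; edgeR adjusted p = 1.00).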

How the data were processed

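Per the labels' protocols, stranded mRNA libraries of pooled roots were sequenced as paired reads of 100 nt. The authors deposited a raw count for every gene, with no normalization. The tools listed, per the submitters' processing notes, were HISAT2 2.1.0 and featureCounts 1.6.2, with Trimmomatic 0.38 and FastQC 0.11.2 for the reads and edgeR 3.34.1 in R 4.1.1. Not given in the sources used here: genome build, annotation version, strand setting and treatment of reads that match several genes. Overlapping genes and near-identical copies may share or lose reads. Each of 6 column names stood on 2 columns, the technical runs of a pool, which were summed, and n is the number of pools. Whether pools came from separate cultures is not stated beyond their being biological replicates.

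Of 34129 IDs, 0 matched the RefSeq gene table as written, so no names, product lists, marker genes, sequences or coordinates were used, and position is the order of ID numbers. Genes were fitted with edgeR 4.0.16 in R 4.3.3 over the whole table (filterByExpr, 23707 genes kept, 10422 removed; TMM; robust quasi-likelihood fit with genotype as the only term; two-sided). CPM is TMM-scaled. A prior count of 2 was added for log2 CPM. Chromosomes were compared within pools by exact sign-flip tests over 64 arrangements, and genotypes by exact permutation over 20 assignments. Alternatives used DESeq2 1.42.0, limma 3.58.1, other scalings, filters, thresholds, bins, IDs and runs, replicate blocks, and each pool left out.

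Named genes were the 10 highest on chromosome 5, the 5 with the widest range at a mean of at least 1 CPM, the 2 lowest p in each direction, the ends of the longest silent run and the highest gene of the most silent bin; exceptions are marked. The chromosome and the measures were chosen with earlier results of these data known.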

Additional observations from a re-analysis of the deposited data

Results flagged for a closer look

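Outside the comparisons above, the table holds 102 genes with a K in place of a chromosome number. Of these, 58 were read in at least 1 pool and 44 had 0 counts in all 6. They took 0.0525% of all counts.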

How the results depend on the processing

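The share of silent genes on chromosome 5 exceeded the mean of the other 9 chromosomes by 13.96 percentage points over all pools together. It did so by 16.1 with at most 5 counts over the 6 pools, 16.0 with under 0.1 CPM in every pool, and 14.9 and 14.5 from the first-listed and the second-listed column of each pool, which hold about 50% of the reads. The expressed share lay under that mean, at a difference of -17.5 in the main definition, -17.8 at 0.5 CPM, -16.0 at 5 CPM, -17.2 at 1 CPM in all 6 pools and -18.0 with IDs that end in 00. Leaving out each pool in turn gave 14.1 to 14.3 for the silent share and -17.6 to -17.3 for the expressed share. With 5 pools the exact sign-flip test cannot go below 0.0625, so its calls were lost by construction while the differences stayed at 16.2 to 16.5 (share at 0), -17.4 to -17.3 (share at 1 CPM), -8.62 to -8.00 CPM (level per gene), 3.22 to 3.81 (middle minus ends), 8.60 to 9.11 (later minus earlier bins) and 19.54 to 19.96 (genes at 0 after a gene at 0). The middle-minus-ends call was lost with IDs that end in 00 (1.83).

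The difference in spread was 0.036 for genes of at least 5 CPM and 0.030 to 0.072 with a pool left out, lowest without bri1-ems72 replicate 1 and next lowest (0.047) without bri1-ems72 replicate 3. Genes called between genotypes on chromosome 5 numbered 0 in each direction under each of the 17 alternatives fitted. Genes at unadjusted p below 0.05 numbered 15 from the second-listed columns (1.24%, against 1.42% of all tested genes) and 16 to 35 with a pool left out (1.22% to 2.66%, against 1.20% to 2.12% of all). Against 24 such genes, a replicate block on the description numbers gave 30 (2.35%, against 1.77% of all) and a replicate block on the title numbers 92 (7.20%, against 5.53% of all), so the rise with the latter was shared by all tested genes. With title numbers, WT-ems72 replicate 2 (number 4) and bri1-ems72 replicate 1 (number 1) each stood alone in a block. The genotype difference then rested on the other pools, so 92 and 24 do not come from like sets of pools. The cause of the changes in these counts was not tested. Deviations from the genotype mean correlated at 0.044, -0.228 and 0.401 between pools of equal description number, and at 0.392 and 0.401 between the 2 pairs of equal title number. Those 2 were the highest correlations of all pairs, and pairs with neither number in common ran from -0.402 to 0.236. Neither numbering was taken as pairing, the first because not every pair correlated and the second because the labels share only 2 such numbers. The main fit thus has no term for what pools of equal title number may share. With a pool left out, the genotype difference of chromosome 5 was 0.041 to 1.23 percentage points for the share at 0, -0.034 to 0.664 for the share at 1 CPM and -1.03 to 0.691 CPM for the level per gene, so the sign of the last 2 rests on single pools. Without WT-ems72 replicate 2 the level per gene was 0.691 CPM higher in bri1-ems72, and without bri1-ems72 replicate 3 0.313 CPM higher. Without bri1-ems72 replicate 2 the share at 1 CPM differed by -0.034. Recounts without resistance genes and without uncharacterized products were not run, for want of product names.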
